A study of Mus musculus with 6 samples.

Results

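The genes described are 9 components of the *Fat4*-*Dchs1* and Hippo-Yap pathway in the kidney of the E15.5 mouse embryo: the cadherins *Fat4* and *Dchs1*, the coactivators *Yap1* and *Wwtr1*, the DNA-binding factors *Tead1* and *Tead2*, and the target genes *Ccn1*, *Ccn2* and *Amotl2*. They were chosen by name, and every probe that the platform annotation assigns to them was taken, which gave 18 of the 45277 probes on the Illumina MouseWG-6 v2.0 array. All 9 genes had at least 1 probe that passed the filter on dim signals (detected at p under 0.05 on 3 or more of the arrays), and these were 14 of the 18639 probes tested. Whole kidneys were profiled on 6 arrays, 3 of *FoxD1* GC;*Dicer* fl/fl embryos and 3 of Cre-negative littermate controls, and each array held RNA pooled from 2 embryos of one genotype from one of 3 litters. The *FoxD1* GC allele expresses a fusion of enhanced green fluorescent protein and Cre recombinase from the endogenous *Foxd1* locus, so Cre acts in the renal stroma and in the cells that descend from it, and the floxed *Dicer* allele loses its function there. The backgrounds of the parent lines were 129-Elite for *FoxD1* GC and C57BL/6J for the floxed *Dicer* allele. The *Dicer* alleles of the controls were not stated in the labels or methods. Because no array held kidneys with the *FoxD1* GC allele and intact *Dicer*, effects of that allele and of *Dicer* loss cannot be told apart.

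*Fat4* and *Dchs1* encode very large cadherins that bind each other across neighbouring cells, and in the mouse kidney stromal *Fat4* is needed for the neighbouring nephron progenitors to differentiate. The Hippo kinases Stk3, Stk4, Lats1 and Lats2 phosphorylate Yap1 and its paralogue Taz (encoded by *Wwtr1*), which keeps both out of the nucleus. When not phosphorylated, Yap1 and Taz enter the nucleus and bind Tead factors to switch on target genes that include *Ccn1*, *Ccn2* and *Amotl2*. An array of RNA reads the level of these transcripts and not the phosphorylation or location of the proteins. In RNA of whole kidneys, fewer cells of a type and less RNA per cell cannot be told apart.

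Tead factors bind the sequence CATTCC. The promoters of the members were searched for it on both strands, where a site on the other strand reads GGAATG, in the RefSeq sequences of build GRCm38.p6, from 250 bases before to 50 bases after each annotated start. A promoter was at hand for 6 of the 9 members, and 4 of them, *Yap1*, *Wwtr1*, *Ccn1* and *Amotl2*, held a match. Of the 27025 genes with a promoter of this length in the same table, 4481 (16.6%) held one (4817 of 32851 promoters, 14.7%). The promoters of *Fat4* and *Tead2* held none, which says only that these letters are absent from that window. The promoters of the target genes *Ccn1* (chr3:145649936-145650235, minus strand) and *Amotl2* (chr9:102717554-102717853, plus strand) are shown in full, and a short stretch around the match is shown for *Yap1* (promoter at chr9:8004547-8004846, minus strand) and *Wwtr1* (promoter of its first annotated start at chr3:57575861-57576160, minus strand). They are written 5′ to 3′ on the strand of the gene, with the match in capitals:
Ccn1: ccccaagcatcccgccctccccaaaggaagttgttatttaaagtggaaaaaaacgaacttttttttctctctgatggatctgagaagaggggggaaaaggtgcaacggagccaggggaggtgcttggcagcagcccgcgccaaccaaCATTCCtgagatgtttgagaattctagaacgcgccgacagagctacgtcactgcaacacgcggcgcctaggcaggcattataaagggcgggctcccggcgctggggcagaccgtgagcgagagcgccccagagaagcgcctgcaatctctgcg
Amotl2: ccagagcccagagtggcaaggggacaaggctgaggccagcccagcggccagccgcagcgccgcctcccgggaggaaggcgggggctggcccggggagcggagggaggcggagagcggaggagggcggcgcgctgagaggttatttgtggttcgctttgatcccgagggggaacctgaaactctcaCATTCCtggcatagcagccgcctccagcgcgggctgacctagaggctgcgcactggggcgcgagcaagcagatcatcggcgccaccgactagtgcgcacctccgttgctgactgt
Yap1: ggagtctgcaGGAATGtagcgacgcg
Wwtr1: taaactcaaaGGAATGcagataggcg
The match begins 103 bases before the start of *Ccn1*, 65 before that of *Amotl2*, 141 before that of *Yap1* and 136 before that of *Wwtr1*. The capitals mark a sequence match only, and binding of Tead factors was not measured. *Dchs1*, *Tead1* and *Ccn2* had no entry in the promoter table used here.

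None of the 9 genes passed the test between the genotypes, by limma with litter in the model. By the study's threshold, a *B*-statistic (the log odds that a gene is changed) above 0, 0 of 9 were called, and the same held over all probes tested (0%). An adjusted p under 0.05 was likewise reached by 0 of 9 members and by 0% of all probes tested. Over all probes these counts moved with the processing, from 0 to 249 probes with *B* above 0 and from 0 to 93 with an adjusted p under 0.05, while no member reached *B* above 0 under any alternative run. At an unadjusted p under 0.05, 0 of 9 members passed, where 5.52% of all probes tested did (1028 of 18639). The median log2 fold change of mutant over control, positive where the mutant is higher, was 0.09 for the 9 members and -0.04 for the 10474 genes tested, each gene taken through its brightest probe. With 3 arrays per genotype the standard error (SE) of a log2 fold change had a median of 0.22 over all probes, and the 95% confidence intervals given with each gene state how large a change these arrays leave possible.

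**Figure D1:**
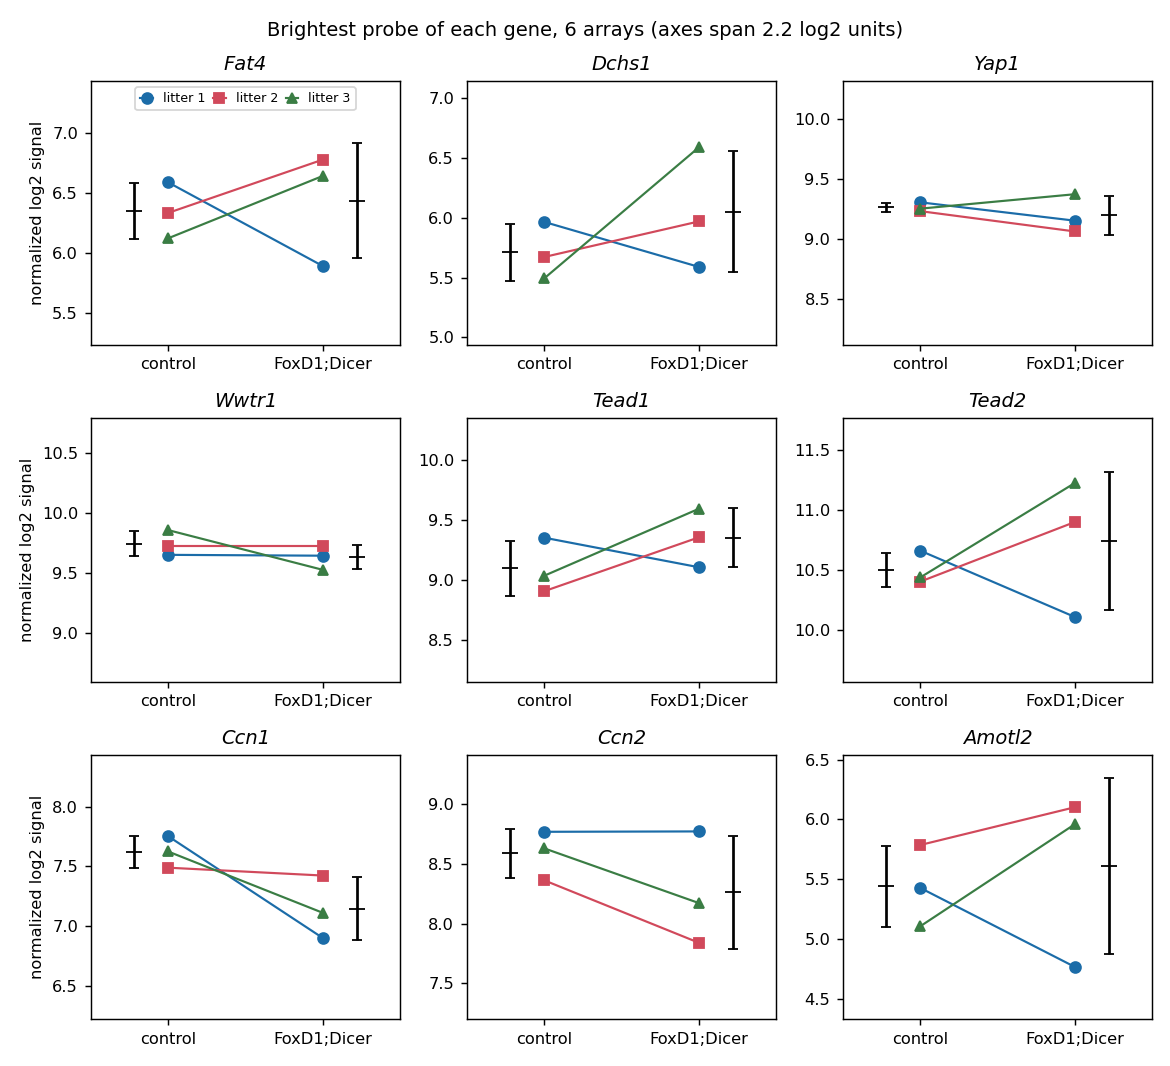
Normalized log2 signal of the brightest probe of each of the 9 genes (vertical axes, each spanning the same length) in control and FoxD1;Dicer kidneys, with a line joining the arrays of one litter and, beside each genotype, its mean and SD over 3 arrays. The lines of Fat4, Dchs1, Tead1, Tead2 and Amotl2 slope down in litter 1 and up in litters 2 and 3, and the genotypes are apart for Ccn1 alone.

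Of the cadherins, *Fat4*, the mammalian counterpart of *Drosophila* Fat, was measured by 1 probe, which was detected on all 6 arrays. Its normalized log2 signal was 6.59, 6.34 and 6.13 in the control kidneys of litters 1, 2 and 3 and 5.89, 6.78 and 6.65 in the mutant kidneys of the same litters. The mutant was thus the lower of the pair in litter 1 and the higher in litters 2 and 3, and the genotypes overlapped. The means were 6.35 ± 0.23 in controls and 6.44 ± 0.48 in mutants (SD, n = 3 arrays each). Over the 3 litters limma gave a log2 fold change of 0.09 (SE 0.29, adjusted p = 0.970) with a 95% confidence interval of -0.59 to 0.77, that is, between 0.663 and 1.71 times the control level. Its sign turned to -0.09 without litter 2, to -0.13 without litter 3 and to -0.077 with a common median for each array in place of quantile normalization (scaling to one median).

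*Dchs1* encodes the cadherin that binds Fat4, the counterpart of Dachsous, the ligand of Fat in *Drosophila*. Its brightest probe read 5.96, 5.67 and 5.49 in controls and 5.59, 5.97 and 6.59 in mutants of litters 1, 2 and 3. The highest value was that of the mutant of litter 3, and as for *Fat4* the mutant was lower in litter 1, higher in litters 2 and 3, and the genotypes overlapped. Its log2 fold change was 0.34 (SE 0.30, 95% confidence interval -0.37 to 1.05, adjusted p = 0.890 from limma), and it was -0.039 without litter 3. The other 2 probes of *Dchs1* were detected on 0 of 6 arrays and were not tested.

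*Yap1*, the transcriptional coactivator held in check by the Hippo kinases, was measured by 1 bright probe. Its log2 signal was 9.31, 9.23 and 9.26 in controls and 9.15, 9.06 and 9.38 in mutants. The mutant values lay on both sides of the narrow range of the controls (9.27 ± 0.04 against 9.20 ± 0.16, SD, n = 3 each). Its fitted difference of -0.07 (SE 0.20, adjusted p = 0.967 from limma) had an interval from -0.54 to 0.40, or 0.689 to 1.32 times the control level. Before normalization the bead signals of *Yap1* were 776.4, 742.0 and 804.9 in controls and 721.2, 537.4 and 593.0 in mutants. On that scale the 3 mutant arrays lay below the 3 control arrays, and 2 of them, those of litters 2 and 3, were the arrays with the narrowest range of signal: the 95th percentile was 7.90 and 7.91 times the level of undetected probes there, against 9.45 to 10.5 times on the other 4. Scaled to one median, *Yap1* was at -0.38, beside a median of -0.22 over all probes under that scaling.

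*Wwtr1* encodes Taz, the paralogue of Yap1, and was matched by gene identifier, since the symbol Taz on this platform stands for tafazzin, an unrelated mitochondrial enzyme. The brightest of its 3 probes read 9.65, 9.73 and 9.86 in controls and 9.65, 9.73 and 9.53 in mutants. The pairs of litters 1 and 2 were nearly equal and the mutant of litter 3 was the lowest array. By limma the log2 fold change was -0.11 (SE 0.20, 95% confidence interval -0.59 to 0.36, adjusted p = 0.942). A second probe, detected on 4 arrays, gave 0.12 (SE 0.27), with differences of 0.80, -0.12 and -0.32 in litters 1, 2 and 3, and the third was detected on 0 arrays. Scaled to one median, the brightest probe was at -0.41.

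Of the factors that bring Yap1 and Taz to DNA, *Tead1* was measured by 3 probes. The brightest read 9.35, 8.90 and 9.03 in controls and 9.10, 9.35 and 9.59 in mutants of litters 1, 2 and 3. Again the mutant was lower in litter 1 and higher in the other 2 litters, with overlap between the genotypes. Over the litters its log2 fold change was 0.25 (SE 0.23, 95% confidence interval -0.30 to 0.81, adjusted p = 0.891 from limma), and scaled to one median it was -0.039. A second probe detected on all 6 arrays gave 0.23 (SE 0.28), carried by litter 3 with a difference of 0.97 beside -0.10 and -0.18 in litters 1 and 2. The third probe was detected on 0 arrays.

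*Tead2*, the family member best known from embryonic tissue, had 1 probe. It read 10.66, 10.40 and 10.44 in controls, a spread of 0.14 (SD, n = 3), and 10.10, 10.90 and 11.22 in mutants, a spread of 0.58 (SD, n = 3). The mutants held both the lowest and the 2 highest of the 6 arrays. The differences within litters were -0.55, 0.50 and 0.79, and the log2 fold change was 0.24 (SE 0.29, 95% confidence interval -0.45 to 0.94, adjusted p = 0.918 from limma). It was -0.062 with scaling to one median and -0.028 without litter 3. The probes of *Tead3* and *Tead4*, the other 2 members of the family, were detected on 0 of 6 arrays.

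Among the target genes, *Ccn1* (earlier *Cyr61*) encodes a secreted matricellular protein. Its brightest probe read 7.75, 7.49 and 7.63 in controls and 6.90, 7.42 and 7.11 in mutants. Each mutant array lay below each control array, by 0.85, 0.07 and 0.51 within litters 1, 2 and 3. The fit gave a log2 fold change of -0.48 (SE 0.23, 95% confidence interval -1.02 to 0.06, adjusted p = 0.860 from limma), or between 0.494 and 1.05 times the control level. *Ccn1* was the 1 member of 9 whose genotypes did not overlap, where 12.9% of all probes tested did not, and the 1 member with the same sign in all 3 litters, where 25.1% of all probes tested had one sign. Taken by direction, 1 of 9 was lower in all 3 litters (13.6% of all probes) and 1 was lower without overlap (7% of all probes), while 0 of 9 were higher in all 3 litters (11.5% of all probes) or higher without overlap (5.92% of all probes). The other 2 probes of *Ccn1* disagreed with the brightest. The second, detected on all 6 arrays, gave -0.17 (SE 0.31), with a difference of -1.06 in litter 1 and of 0.18 and 0.38 in litters 2 and 3. The third, detected on 4 arrays, gave 0.18 (SE 0.23), with differences of -0.26, 0.46 and 0.34.

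*Ccn2* (earlier *Ctgf*) encodes a related secreted protein known for its induction in fibrosis. Its brightest probe read 8.77, 8.36 and 8.63 in controls and 8.77, 7.84 and 8.17 in mutants of litters 1, 2 and 3. The pair of litter 1 was nearly equal, and in litters 2 and 3 the mutant was lower by 0.52 and 0.46. For this probe the log2 fold change was -0.32 (SE 0.21, 95% confidence interval -0.83 to 0.18, adjusted p = 0.860 from limma). The second probe of *Ccn2* followed the first, with 8.53, 8.30 and 8.73 in controls, 8.65, 7.92 and 8.04 in mutants and an estimate of -0.31 (SE 0.23, adjusted p = 0.869 from limma). On both probes the mutants of litters 2 and 3 were the 2 lowest of the 6 arrays. The value of the brightest probe was -0.59 with scaling to one median.

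*Amotl2* encodes an angiomotin-like scaffold that binds Yap1 and is itself a target of Yap1 and Tead. Its 1 probe was dim and was not detected on the mutant array of litter 1. It read 5.43, 5.79 and 5.11 in controls and 4.77, 6.10 and 5.96 in mutants. The mutants again held the lowest and the 2 highest arrays, with differences of -0.66, 0.32 and 0.85 within litters. Fitted over the litters, the log2 fold change was 0.17 (SE 0.31, 95% confidence interval -0.56 to 0.90, adjusted p = 0.944 from limma), and it was -0.17 without litter 3.

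**Figure D2:**
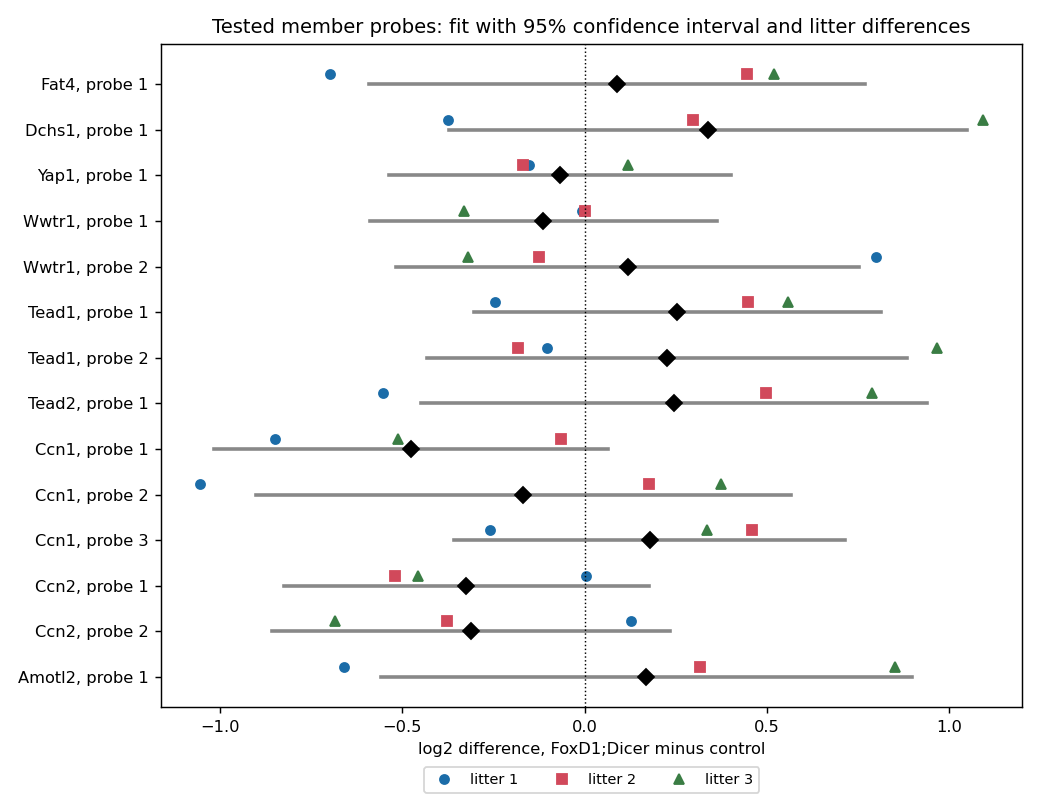
Log2 difference of FoxD1;Dicer minus control for the 14 tested probes of the 9 genes (horizontal axis), with diamonds for the limma estimate over 3 litters, grey bars for its 95% confidence interval and coloured points for the difference within each litter. Every interval spans 0, and for Fat4, Dchs1, Tead2 and Amotl2 the point of litter 1 lies left of 0 and those of litters 2 and 3 right of it.

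The litters were thus not alike for most of the members. In 6 of 9 (*Fat4*, *Dchs1*, *Tead1*, *Tead2*, *Ccn2* and *Amotl2*) the difference in litter 1 was opposite in sign to that in both other litters, where the same was true of 43.7% of all probes tested. *Ccn2* enters this count with a difference near 0 in litter 1, 0.003 on its brightest probe and 0.13 on its second. In 5 of the 6, all but *Ccn2*, the mutant was lower in litter 1 and higher in litters 2 and 3, a pattern shown by 22.8% of all probes tested. This holds for normalized values. Before normalization the mutant had the lower bead signal for *Dchs1* and *Amotl2* in litter 2 (147.1 against 151.2, 152.4 against 155.4). For *Tead1* this was so in litter 3 (679.5 against 703.5). The other pairs of these 5 genes in litters 2 and 3 had a higher mutant signal. For *Fat4* the margin was narrow (185.8 against 181 and 171.8 against 169.9). How much of the pattern came from normalization was not tested. The median difference of the 9 members was -0.38 in litter 1, 0.30 in litter 2 and 0.52 in litter 3, beside -0.01, -0.02 and -0.11 for all genes tested. Without litter 1, 6 of the 9 members, the same genes, had an unadjusted p under 0.05, at *Fat4* 0.48, *Dchs1* 0.70, *Tead1* 0.50, *Tead2* 0.64, *Ccn2* -0.49 and *Amotl2* 0.58 on the log2 scale, and so did 21% of all probes tested (3923 of 18639). A *B*-statistic above 0 was reached by 0 of 9 members there. These 6 are the genes whose litter 1 went the other way, barely so for *Ccn2*, so leaving it out was bound to move their estimates away from 0.

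The split of the arrays followed *Xist*, the RNA that coats the inactive X chromosome of female cells. Its log2 signal was 9.64, 4.57 and 4.61 in controls and 4.54, 9.39 and 9.64 in mutants of litters 1, 2 and 3, so that the control array was the high one in litter 1 and the mutant array in litters 2 and 3. The Y-linked *Eif2s3y* was detected on all 6 arrays and ran the other way, at 9.20, 9.94 and 10.06 in controls and 9.99, 8.89 and 8.02 in mutants. In litters 2 and 3 alone, the controls were all low in *Xist* and the mutants all high. The estimates without litter 1 therefore cannot tell genotype from this split. The labels do not give the sex of the pooled embryos. For 4 of the 9 members, *Fat4*, *Dchs1*, *Tead1* and *Tead2*, the 3 arrays high in *Xist* were also the 3 highest arrays, as for 14.6% of all probes tested, and for 0 of 9 they were the 3 lowest (12.7% of all probes). These arrays also had most probes detected, 19331 to 20224, against 16981 to 18943 on the other 3.

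With the *Xist* level as a covariate beside litter, which leaves very few degrees of freedom, the log2 fold change was -0.10 for *Fat4* (SE 0.15), 0.17 for *Dchs1* (0.22), 0.14 for *Tead1* (0.15), 0.05 for *Tead2* (0.16) and -0.028 for *Amotl2* (0.18). Each of these 5 values was lower than in the model without it, and those of *Fat4* and *Amotl2* changed sign. In all 5 genes the mutant was lower in litter 1 and higher in the other litters, as for *Xist*. The covariate was therefore bound to lower their estimates, and the fall is no separate evidence of a link to *Xist*. *Ccn1* was at -0.56 (SE 0.18, adjusted p = 0.498 from limma) and *Ccn2* at -0.25 (0.15). Whether the sex of the embryos, the number of probes detected or some other property of the arrays accounts for the split was not tested.

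**Figure D3:**
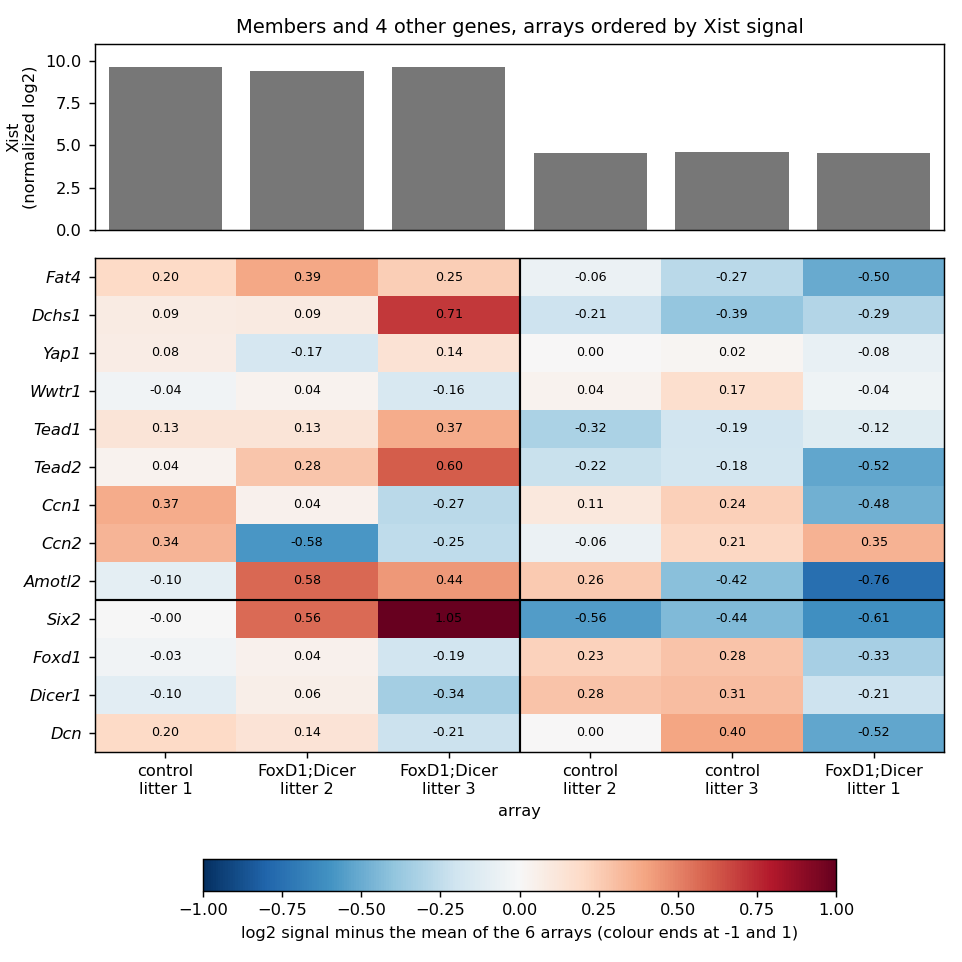
Normalized log2 signal of Xist on the 6 arrays (upper bars, from 0), and below it the log2 signal of the 9 genes and of Six2, Foxd1, Dicer1 and Dcn minus their mean over the 6 arrays (colour and printed value), with arrays ordered by genotype within the 3 high and the 3 low in Xist. Fat4, Dchs1, Tead1 and Tead2 are above their mean on each of the 3 arrays high in Xist and below it on the other 3.

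*Six2*, the transcription factor that marks nephron progenitors, varied over the arrays in the same way. Its log2 signal was 6.75, 6.19 and 6.31 in controls and 6.13, 7.31 and 7.80 in mutants. By limma its log2 fold change was 0.67 (SE 0.40, adjusted p = 0.860). As for *Tead2*, the mutants held the lowest and the 2 highest arrays. The other markers of these cells did not all follow, and over the 10 tested genes of the nephron progenitor list the median difference was -0.07, 0.21 and 0.01 in litters 1, 2 and 3. The summed background-corrected and normalized signal of that list was 2150 to 2468 in controls and 2128 to 2796 in mutants.

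*Foxd1*, the stromal transcription factor whose locus carries Cre, read 9.85, 10.12 and 10.17 in controls and 9.56, 9.93 and 9.70 in mutants, where limma gave -0.32 (SE 0.20, adjusted p = 0.860). On the brightest probe of *Dicer1* the estimate was -0.33 (SE 0.21, adjusted p = 0.860 from limma), and whether that probe lies in the floxed part is not known here. The other tested probes of *Dicer1*, each detected on 4 arrays, gave -0.15 (SE 0.23) and 0.09 (SE 0.27). Their differences in litters 1, 2 and 3 were -0.50, 0.32 and -0.26 for the first and -0.59, 0.27 and 0.60 for the second. *Dcn*, which encodes the matrix proteoglycan decorin and is known in the mouse kidney to be repressed by Foxd1, had log2 fold changes of -0.40, -0.35 and -1.14 on its 3 tested probes (adjusted p = 0.860, 0.891 and 0.708 from limma). The third probe was the dimmest, at 6.39, 6.79 and 6.56 in controls and 5.29, 5.57 and 5.45 in mutants, and its genotypes did not overlap. Of the renal stroma markers, 13 of 15 were tested, 3 were higher and 10 lower in mutants, and their median log2 fold change was -0.13. Their summed background-corrected and normalized signal was 24020 to 24720 in controls and 20600 to 22200 in mutants. Among the brightest of them, which weigh most in the sum, *Col3a1* was at -0.51 (SE 0.19) and *Dcn* at -0.40. *Anxa2* and *Meis2* were at -0.03 and -0.05.

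Other lists differed between the genotypes in their summed signal as well, and the genes named from them were chosen after their values were seen. That of the smooth muscle markers was 3746 to 4646 in controls and 1484 to 2441 in mutants. Of its 4 tested genes 1 was higher and 3 were lower, and the sum was carried by *Acta2*, which encodes smooth muscle actin, at 11.82 ± 0.15 in controls and 10.55 ± 0.51 in mutants (SD, n = 3 each; log2 fold change -1.27, SE 0.25, adjusted p = 0.760 from limma). The list's median difference was -0.95, 0.12 and -0.33 in litters 1, 2 and 3. Genes of the immediate early response, to which *Ccn1* and *Ccn2* are also known to belong, summed to 1484 to 2130 in controls and 1133 to 1435 in mutants. There 2 of 7 tested genes were higher and 5 lower, and the brightest, *Egr1*, was at -0.89 (SE 0.27, adjusted p = 0.860 from limma), with differences of -0.30, -0.84 and -1.52 in litters 1, 2 and 3. The sums of the macrophage markers were 391.4 to 420.5 in controls and 440.2 to 673.2 in mutants, with 5 of 6 tested genes higher and *Cx3cr1* at 0.87 (SE 0.21, adjusted p = 0.860 from limma). Over the macrophage list the median difference was 0.55, 0.13 and -0.14 in litters 1, 2 and 3. For the ureteric bud, nephron epithelium, podocyte, endothelial and erythroid markers the ranges of the sums overlapped. The part of cell composition or of the immediate early response in the members' values was not tested. Each of the 9 cell type lists, from stroma to erythroid cells, had at least 3 tested genes.

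The other genes of the pathway were taken from 4 lists of 51 genes in all, of which 47 were named on the array and 30 were tested. Of these 30, 14 were higher and 16 lower in mutants, the median log2 fold change was -0.03, and 0 had a *B*-statistic above 0. At an unadjusted p under 0.05 there were 2 of the 30, 1 higher and 1 lower, where 2.59% of all probes tested were higher and 2.92% lower at that p. Among the Hippo kinases and scaffolds, 14 of 20 were tested, with 8 higher and 6 lower and a median of 0.03. *Lats2*, the kinase that phosphorylates Yap1 and is also counted among its targets, was at 0.36 (SE 0.20, adjusted p = 0.860 from limma) on a dim probe. That probe was detected on 1 control and 2 mutant arrays, so it passed the filter only with the mutant arrays. It was higher in the mutant in each litter, by 0.15, 0.52 and 0.42, as were 11.5% of all probes tested. *Lats1* and *Nf2*, which encodes an upstream activator of the kinases, were detected on too few arrays to be tested.

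Of the other cadherins and partners of Fat4 and Dchs1, 4 of 8 were tested, 2 higher and 2 lower. *Mpdz*, a scaffold with many PDZ domains, had 4.74 to 5.67 in controls and 5.65 to 6.19 in mutants on its brightest tested probe. The ranges overlapped at their edges, and the log2 fold change was 0.57 (SE 0.22, unadjusted p = 0.0382, adjusted p = 0.860 from limma). This probe was detected on 2 control and 3 mutant arrays, so the control arrays alone would not have passed the filter. Its differences in litters 1, 2 and 3 were 0.60, 0.92 and 0.19, the largest where the control was at 4.74. Under the alternatives the estimate on this probe ran from 0.10 with the authors' series-matrix values and 0.21 with no background correction to 0.77 with array weights. The 2 other tested probes of *Mpdz* gave 0.21 and 0.15. *Vgll4*, a repressor that competes with Yap1 for Tead factors and the 1 tested gene of 6 TEAD partners, named here after its value was seen, was at 0.19 (SE 0.20).

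Of the YAP-TEAD target genes beyond the members, 14 of 21 were tested, with 6 higher, 8 lower and a median of -0.11. In all 3 litters 4 were higher and 4 lower, as were 11.5% and 13.6% of all probes tested. Their summed signal was 5345 to 5548 in controls and 4708 to 5204 in mutants. The brightest genes, *Birc5* and *Rbms3*, weigh most in that sum. Their differences in litters 1, 2 and 3 were -0.46, 0 and -0.003 for *Birc5* and -0.52, 0.01 and -0.36 for *Rbms3*. The sum also includes *Igfbp3*, described below, and which genes account for the difference between the genotypes in the sum was not tested. How often the sums of other gene lists differ was not tested. *Igfbp3*, which encodes a binding protein of insulin-like growth factors, had the smallest unadjusted p of the pathway genes. Its brightest probe read 8.89, 8.67 and 8.80 in controls and 8.06, 7.83 and 7.64 in mutants. The mutant was lower in each litter, by 0.83, 0.84 and 1.16, and the genotypes were well apart. Its log2 fold change was -0.94 (SE 0.20, unadjusted p = 0.00231, adjusted p = 0.826 from limma, *B* = -2.35). The second probe of *Igfbp3* gave -0.47 (SE 0.24), with a mutant as high as its control in litter 3 (a difference of 0.04). *Dock5*, an exchange factor for Rac, was at -0.45 (SE 0.20, adjusted p = 0.860 from limma) and lower in each litter, by 0.44, 0.30 and 0.62. *Ankrd1*, a classic target of Yap1, and *F3* were detected on 0 arrays.

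**Figure D4:**
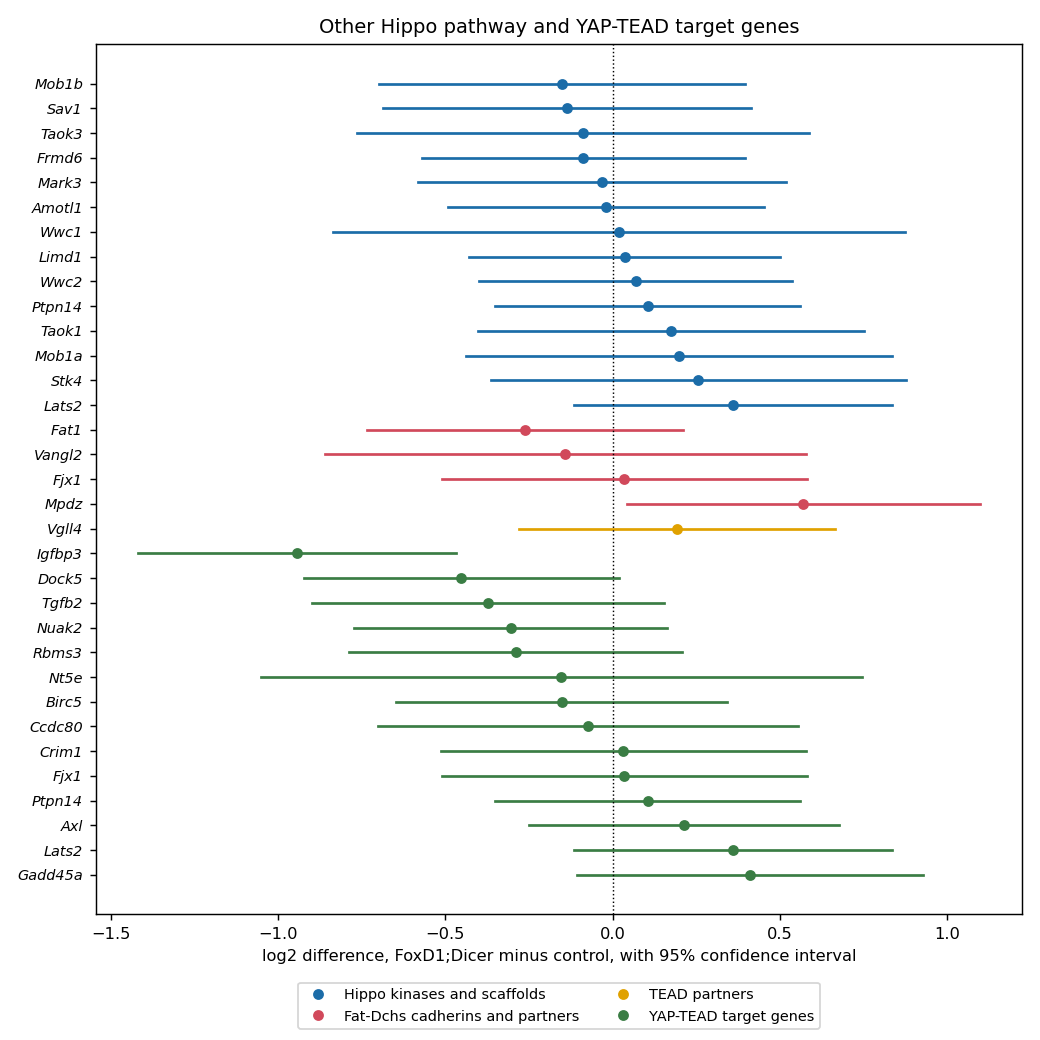
Log2 difference of FoxD1;Dicer minus control (horizontal axis, limma estimate with its 95% confidence interval) for the 30 tested genes of the 4 pathway lists, coloured by list and sorted by value within it; Lats2, Fjx1 and Ptpn14 stand in more than 1 list. The interval of Igfbp3 lies left of 0 and that of Mpdz right of 0, before adjustment over all probes, and the others span 0.

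Genes with the most similar course over the 6 arrays were found as those whose log2 values, centred on their mean, differed least from the member's by root mean square, with 1 probe per gene. For *Fat4* these were *Wipi2*, *Pold2* and *Mrps18b*, at 0.0447, 0.0601 and 0.0646 log2 units, beside a median of 0.391 over all genes tested. The nearest of the other members was *Tead2*, at 0.181. For *Dchs1* they were *Myh10*, *Pphln1* and *Tceal8*, led by 0.0255, with *Tead2* as the nearest member at 0.153. *Tead2* lay nearest to *Nob1*, *Cenpv* and *Hnrnpd* (0.0417 for the first), and *Tead1* to *Stard3*, *Pdhb* and *Tecr* (0.0330).

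Each member had genes outside the pathway closer to it than any other member was. With 10474 genes set against the few other members, this was nearly fixed in advance. It does not tell whether the members vary together. *Yap1* was nearest to *Slc35e2*, *Tmem39a* and *Sco1* (0.0268), and *Wwtr1* to *Srp14*, *Psd3* and *Slc30a3* (0.0230). *Ccn1* was nearest to *Ehbp1*, *Snai2* and *Syce2* (0.0473), *Ccn2* to *Grhl1*, *Kctd5* and *Adhfe1* (0.0819), and *Amotl2* to *Rnf19b*, *Sec31a* and *Pepd* (0.109). With 6 arrays and 10474 genes, such likeness describes these arrays and was not tested.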

How the data were processed

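Arrays were assigned to genotype and litter from the labels. The authors deposited an intensity per probe and array, the average signal of its beads before any background subtraction or normalization. Their deposited detection p-value sets it against negative control beads. The scanner software was not stated in the labels or methods. The authors also deposited processed log2 values (array medians 7.23 to 7.24) in which low signals are compressed. The study names lumi and limma for its analysis, and the exact transformation of these values is not stated; they increase with the bead signal and carry no centring by gene.

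From 45281 entries, 2 lacked an identifier and 2 repeated one, so 45277 probes were used. The platform annotation, updated by gene identifier, gave 34881 of them 1 gene and 18 several, and 10378 were unnamed here. Signals were background-corrected (normexp with detection p-values, offset 16), quantile normalized and put on the log2 scale (neqc). Probes with a detection p under 0.05 on at least 3 arrays (18639) were fitted in limma (lmFit, then eBayes) with terms for litter and genotype (R 4.3.3, limma 3.58.1); *B* used a prior share of 0.01, and p-values were adjusted over all tested probes by Benjamini-Hochberg. The script was tested on simulated data. A gene was described through its probe with the highest mean signal, with its other probes beside it. Figures and promoter searches used Python 3.11.15, pandas 2.3.3 and matplotlib 3.10.9.

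Labels and methods use 1 number per litter, and litter was therefore kept as a block. Within litters 1, 2 and 3, the control and the mutant array's deviations from their group means had correlations of -0.287, -0.0189 and -0.123 over probes. The members and lists were chosen with earlier results of these data known. Named genes were the 9 members, the 2 genes with the smallest unadjusted p in the Hippo lists and in the target list, the 3 genes most like each member, and *Foxd1*, *Dicer1*, *Six2*, *Dcn* and sex-linked genes as checks; other genes are named where a count includes them. The alternatives were a model with no litter block or with a random one, the authors' series-matrix values, signals used with no background correction or scaled to one median, either no filter on probes or a strict one (detection p under 0.01 on all 6 arrays), array weights, an intensity trend, *Xist* as a covariate, and leaving out each litter. The number of arrays limits the precision.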

Additional observations from a re-analysis of the deposited data

How the results depend on the processing

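Of the members' log2 fold changes under the alternatives, 105 kept their sign, with *B* below 0 as in the reported model, and 10 turned. Some of the 105 reached an unadjusted p under 0.05, and these are counted below. Scaling to one median turned *Fat4* to -0.077, *Tead1* to -0.039 and *Tead2* to -0.062, while the median of all probes moved to -0.22; 2 members were then higher and 7 lower, against 5 and 4. *Xist* as a covariate turned *Fat4* to -0.10 and *Amotl2* to -0.028. Without litter 2 *Fat4* was at -0.09, and without litter 3 *Fat4* was at -0.13, *Dchs1* at -0.039, *Tead2* at -0.028 and *Amotl2* at -0.17. Leaving out each litter in turn, the members ranged from -0.13 to 0.48 (*Fat4*), -0.039 to 0.70 (*Dchs1*), -0.16 to -0.016 (*Yap1*), -0.17 to -0.0036 (*Wwtr1*), 0.10 to 0.50 (*Tead1*), -0.028 to 0.64 (*Tead2*), -0.68 to -0.29 (*Ccn1*), -0.49 to -0.23 (*Ccn2*) and -0.17 to 0.58 (*Amotl2*).

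No member reached *B* above 0 under any alternative run. The count of members at an unadjusted p under 0.05, 0 as reported, was 1 (*Ccn1*) with no replicate block (7.58% of all probes passed there), with litter as a random block (5.62%) and with *Xist* as a covariate (9.28%), 2 with scaling to one median (*Ccn1* and *Ccn2*; 10%), 3 with array weights (*Tead1*, *Tead2* and *Ccn2*; 31.4%), and 0 to 6 when a litter was left out, with the 6 reached without litter 1 (21%; 3.07% and 2.96% without litters 2 and 3). The count of other pathway genes at that p, 2 of 30 as reported, was 1 with litter as a random block, 1 with no background correction (5.37% of all probes), 1 with an intensity trend (5.49%), 4 with the series-matrix values (5.16%), 4 with scaling to one median, 5 with no probe filter, which tests more genes (5.29%), 12 with array weights, and 1 to 6 when a litter was left out. With *Xist* as a covariate that count was 3. *B* was above 0 for 1 pathway gene, *Igfbp3*, with scaling to one median (-1.20) and 1, the same gene, with array weights (-0.89), where 117 and 249 of the 18639 probes passed. Over all probes *B* was above 0 for 34 with no replicate block and 10 with a random one, and an adjusted p under 0.05 was reached by 4 and 2, against 0 and 0 as reported; without litter 1, 2 or 3, *B* was above 0 for 33, 35 and 0. The cause of these changes was not tested. Under the strict filter *Dchs1*, *Amotl2*, *Lats2* and *Mpdz* were not tested and gave no value. *Dchs1*, *Amotl2*, *Lats2*, *Mpdz* and the dimmer probes of *Wwtr1* and *Ccn1* lie near the detection limit, where the size of an estimate depends on the background correction. With and without it, the log2 fold change was 0.34 and 0.14 for *Dchs1* and 0.17 and 0.07 for *Amotl2*. It was 0.36 and 0.13 for *Lats2* and 0.57 and 0.21 for *Mpdz*. How far changes near that limit are understated was not tested. Each litter gave 1 array per genotype, so a difference between litters and one between single arrays cannot be told apart.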
